A study of Homo sapiens with 4 samples.

Results

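The 54 genes described here build and use the axonal cytoskeleton: 5 intermediate filament genes of neurons, 9 genes of microtubule-associated proteins, 8 tubulin genes, 12 kinesin genes, 7 dynein and dynactin genes, 7 genes of spectrins, ankyrins and spectraplakins, and 6 genes of collapsin response mediator proteins (CRMPs) and the growth cone. They were chosen by gene symbol from these families, and all 54 were found among the 77973 genes of the gene table. Of these, 50 had a mean of at least 20 reads per library and were tested. NEFH, MAP7, TUBB4A and TUBB4B fell short of that minimum.

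Full-length complementary DNA was sequenced by PacBio Iso-Seq from cortical neurons that a doxycycline-inducible NGN2 transgene made out of KOLF2.1J cells, an established line of human pluripotent stem cells. The control library came from cells with a non-targeting guide RNA, and the knockdown library from cells with a guide against TARDBP, which encodes TDP-43, a protein that binds RNA and represses cryptic splicing. The azacytidine library came from control-guide neurons given 5 µM 5-azacytidine, a nucleoside that blocks the maintenance of DNA methylation, for 72 hours, and the combined library from knockdown neurons given the same treatment. Every group carried dCas9-BFP-KRAB, the CRISPR interference repressor, and lentiviral guides, and was grown as a puromycin-selected pool of cells, not a clone. Which of the study's 2 harvest days each library came from is not given in the sources used here. Each group had 1 library. The differences therefore have no replicate check, and each test compares the reads of libraries, not conditions.

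The libraries held 466337 to 767621 reads assigned to genes, of which the 54 genes took 1.47% to 1.73%. A read counted for a gene need not be assigned to a transcript: 58.5% to 68.1% of gene reads were, and 23.3% to 35.7% of transcript reads covered a transcript in full. TARDBP, the targeted gene, had 104 control reads against 72 knockdown reads (log2 ratio -0.67, adjusted exact p 0.017), and 73 against 43 with azacytidine (-0.73, adjusted exact p 0.0573, short of the threshold). All 12 neuronal marker genes had reads in every library, summing to between 2170 and 3057 CPM (read counts scaled to effective library size). The 14 markers of proliferating cells summed to 1552 and 1518 CPM in the control and knockdown libraries and to 176 and 129.98 with azacytidine, where 0 and 3 of them had no read; all 11 that could be tested were called lower with azacytidine. In bulk RNA, fewer cells of a type and less RNA per cell cannot be told apart.

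Neurofilaments are heteropolymers of light, medium and heavy chains with alpha-internexin or peripherin, and they set the calibre of axons. Microtubules, polymers of alpha and beta tubulin, are stabilised by proteins such as tau and form the tracks on which kinesins move cargo outward and cytoplasmic dynein, with its activator dynactin, moves cargo back to the cell body. Spectrin tetramers space the actin rings under the axonal membrane, ankyrins tie membrane proteins to them, and the giant spectraplakins cross-link actin with microtubules.

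The knockdown was read in 2 pairs of libraries that share none: knockdown against control, and combined against azacytidine. A gene rose or fell in a pair when the adjusted p of a two-sided exact binomial test of its reads was under 0.05, given effective library sizes. It was called when it also changed at least 2-fold (log2 of 1) and in the same direction in both pairs, and repeated when the fold was not asked for. Without azacytidine, 15 of the 50 members rose and 3 fell with the knockdown, against 16.4% and 3.73% of all genes tested. With azacytidine, 3 rose and 15 fell, against 9.09% and 5.93% of all genes. Passing also depends on how many reads a gene has, and here and below members were not matched to other genes on read number. The median log2 ratio of the members was 0.13 and -0.10 in these pairs, beside 0.18 and 0.05 over all genes. Among the neuronal markers, 11 were tested: 5 rose and 1 fell without azacytidine, and 2 rose and 4 fell with it. Their median log2 ratios were 0.39 and -0.43. Scaling by total reads moved the members' median to -0.09 and that of all genes to -0.04 in the pair without azacytidine.

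Asking for both knockdown pairs left few calls: 0 members were called higher, beside 0.626% of all genes, and 2 were called lower, beside 0.344%. At any fold, ANK2 was the 1 member repeated higher (2.77% of all genes), and TUBA1A, TUBA1B and TUBB were the 3 repeated lower (0.749%). Scaling by total reads gave 0 repeated higher and 6 lower; under it the log2 ratios of ANK2 were 0.13 and 0.20 and neither passed (adjusted exact p 0.119 and 0.16). In the test of the difference itself, the knockdown ratio of 8 members was lower with azacytidine than without it by at least 1 on the log2 scale and of 0 members higher, while over all genes 6.64% were lower and 2.26% higher, 8.9% in either direction. The 8 were NEFL, MAP1B, MAP2, TUBB2A, KIF5B, KIF5C, DYNC1I2 and DST.

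Azacytidine was read in the same way, as azacytidine against control and combined against knockdown. Without the knockdown, 17 members rose and 4 fell, against 12.2% and 13.8% of all genes. With it, 10 rose and 13 fell, against 16.8% and 25.5%. The median log2 ratio of the members was 0.30 and 0.09, beside 0.04 and -0.10 over all genes. Of the 11 neuronal markers tested, 4 rose and 1 fell without the knockdown, and 3 rose and 3 fell with it (medians 0.43 and -0.14). By the rule for both pairs, 2 members were called higher (2.93% of all genes) and 0 lower (6.89%), and 6 were repeated higher (6.31%) and 3 lower (9.96%). Markers of other cells also moved with azacytidine: from the control and knockdown to the azacytidine and combined libraries, the proliferation markers fell as given above, those of neural progenitors summed to 947, 916, 277 and 291 CPM (2 of 5 tested were called lower), those of pluripotent cells to 661, 770, 413 and 532 (2 of 5 called lower), and those of astrocytes and oligodendrocytes, none of which could be tested, to 158, 123, 72.9 and 49.5. Their part in these differences was not tested.

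**Figure D1:**
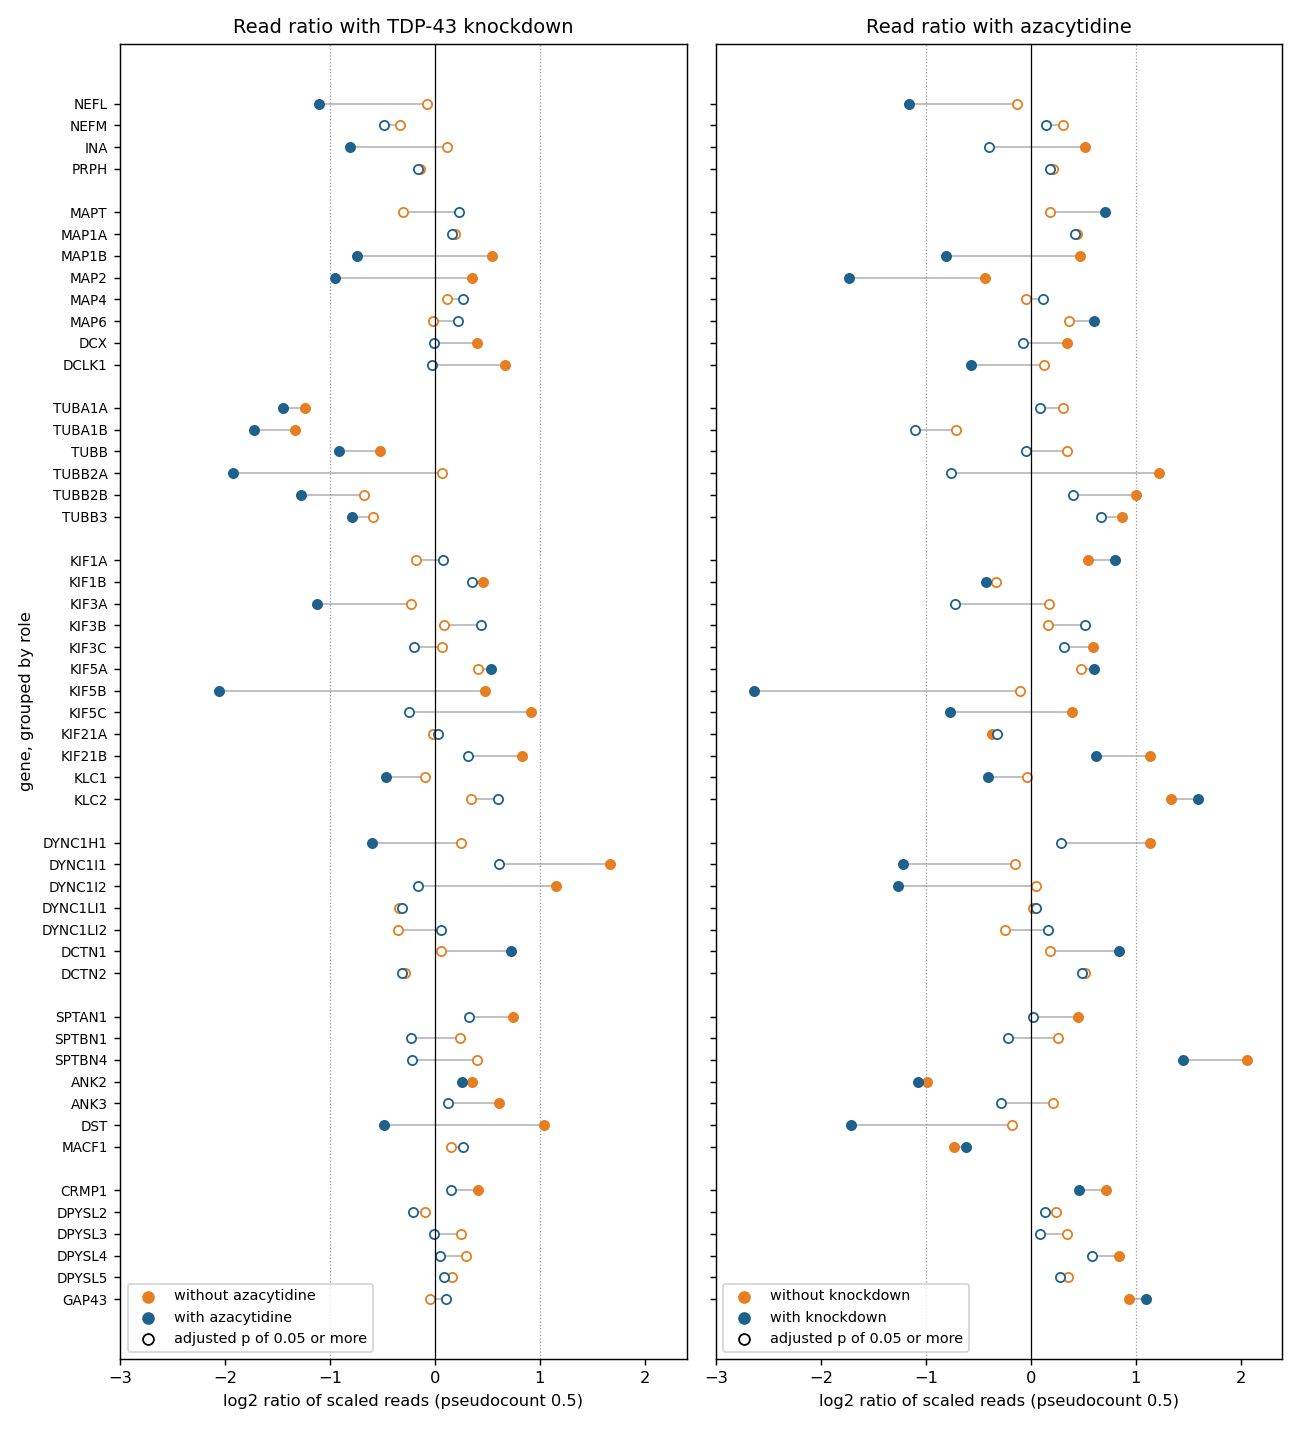
Log2 ratios of scaled reads for the 50 tested genes, grouped by role: the knockdown pairs on the left and the azacytidine pairs on the right ("both" in the figures is the combined library). Filled points passed an adjusted p of 0.05 and dotted lines mark a 2-fold change; the tubulins lie left of 0 in the knockdown pair with azacytidine, where TUBA1A is at -1.45.

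Tubulins were the family with the most calls in the knockdown libraries. TUBA1A (ENSG00000167552.16, chromosome 12, 49184686 to 49189324, hg38), the main alpha tubulin of developing neurons, had 252 control reads, 118 knockdown reads, 248 azacytidine reads and 89 reads in the combined library. Both knockdown libraries were lower than both others. Without azacytidine the knockdown log2 ratio was -1.24 (95% interval -1.57 to -0.92, adjusted exact p 1.61e-13) and -1.45 with it (-1.82 to -1.10, adjusted exact p 2.26e-15), levels of 0.425 and 0.367 times the paired library. TUBA1B (ENSG00000123416.15, chromosome 12, 49127782 to 49131397), a widely expressed alpha tubulin, had 58, 25, 28 and 8 reads; this order, control, knockdown, azacytidine and combined, is kept below. Its log2 ratios were -1.34 (-2.10 to -0.66, adjusted exact p 8.25e-04) and -1.73 (-3.12 to -0.61, adjusted exact p 0.0128).

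TUBB, a general beta tubulin, had 129, 99, 131 and 68 reads, and fell in both knockdown pairs by less than 2-fold (log2 -0.52 and -0.91). TUBB2A, TUBB2B and TUBB3, the beta tubulins of neurons, fell with the knockdown in the presence of azacytidine, by 1.92, 1.27 and 0.79 on the log2 scale. Without azacytidine their log2 ratios were 0.07, -0.67 and -0.59, with adjusted exact p-values of 1, 0.0619 and 0.177. So all 6 tested tubulins fell in the pair with azacytidine and 3 of 6 in the pair without. For TUBB2A, with 19, 22, 36 and 9 reads, the knockdown ratio itself differed between backgrounds (difference -1.99, adjusted exact p 0.0379).

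The tubulin genes share long near-identical coding stretches and have processed copies elsewhere in the genome, so the division of reads among them is uncertain. Full-length reads gave 112, 46, 129 and 48 for TUBA1A, log2 ratios of -1.20 and -1.10, and kept its call. Sums of all transcript reads gave 172, 94, 179 and 79, log2 ratios of -0.96 and -1.01, just short of the 2-fold rule in 1 pair. For TUBA1B they gave -1.47 and -1.49, with an adjusted exact p of 0.1 in the pair with azacytidine, so its call was lost. TUBB passed 2-fold in both pairs in uniquely assigned reads (-1.44 and -2.06), and its transcript sums gave -0.69 (adjusted exact p 0.0504) and -1.22. For TUBB3 transcript sums passed in no pair. Models over the 4 libraries in which the interaction serves as error gave TUBA1A an adjusted p of 0.186 in edgeR and 0.276 in DESeq2, and called no member with the knockdown.

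**Figure D2:**
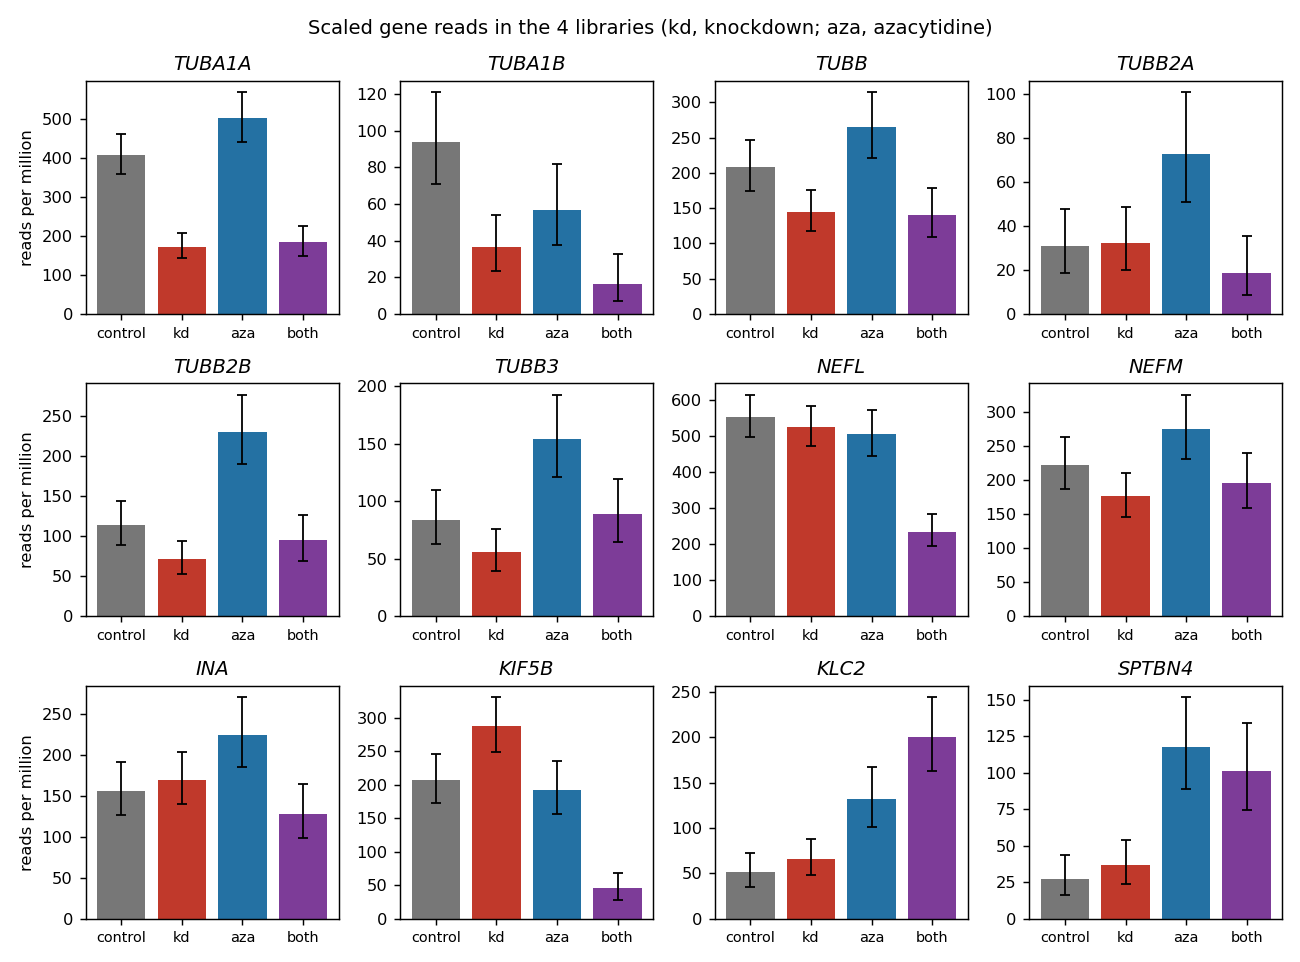
CPM relative to effective library size for 12 genes in the 4 libraries, with exact 95% Poisson intervals for counting error only. TUBA1A and TUBA1B bars are lower in both knockdown libraries, NEFL and KIF5B are low in the combined library, and KLC2 and SPTBN4 are higher in both azacytidine libraries.

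With azacytidine, no tubulin was repeated. TUBB2A, TUBB2B and TUBB3 rose in azacytidine against control (log2 1.23, 1.00 and 0.87), while with the knockdown their log2 ratios were -0.76, 0.40 and 0.67 and none passed. TUBB4A, with 14, 14, 27 and 19 reads, and TUBB4B, with 15, 4, 7 and 7, were too sparse to test. Of 9 further tubulin genes, 2 reached 20 reads on average and neither was called.

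Among the filaments, NEFL, the light chain (ENSG00000277586.4), had 343, 360, 250 and 114 reads. The combined library was the low one of the 4. The knockdown log2 ratio was -0.07 without azacytidine (-0.29 to 0.14) and -1.10 with it (-1.44 to -0.78, adjusted exact p 3.53e-10), and the difference of -1.03 passed its own test (adjusted exact p 8.12e-06). Of the NEFL reads, 185, 192, 164 and 61 were full-length, and these gave a difference of -1.23; uniquely assigned reads gave -0.92, under the fold asked for. INA, alpha-internexin, had 97, 116, 111 and 62 reads and fell with the knockdown in the pair with azacytidine (log2 -0.81, adjusted exact p 0.0045), against 0.11 without it; the difference of -0.92 was under the fold asked for.

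NEFM, the medium chain, had 138, 121, 136 and 95 reads, and none of its 4 ratios passed (log2 -0.33 and -0.49 with the knockdown, 0.30 and 0.15 with azacytidine). NEFH, the heavy chain that is added late in maturation, had 13, 12, 15 and 19 reads and was not tested. PRPH, peripherin, the filament protein of peripheral and some central neurons, had 26, 26, 24 and 21 reads with log2 ratios between -0.16 and 0.21. With azacytidine alone, INA was the 1 filament gene that rose (log2 0.52, adjusted exact p 0.0394).

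The transcripts behind these levels were mostly the annotated ones. All but at most 1 of the 268, 285, 215 and 91 transcript reads of NEFL came from ENST00000610854.2, and those of NEFH all from ENST00000310624.7. NEFM differed in the combined library: 25 of its 69 transcript reads (36.2%, 95% Wilson interval 25.9% to 48.0%) belonged to ENST00000433454.3, whose first exon lies downstream at chromosome 8, 24914942 to 24915297, against 1 of 103, 2 of 89 and 3 of 110 in the other libraries. This start rose by 33.5 percentage points with the knockdown in the presence of azacytidine (adjusted Fisher's exact p 5.23e-07) and by 1.28 points without (0.973), so it was not called. Among uniquely assigned reads it took 18 of 44 in the combined library and 1 of 63, 1 of 58 and 2 of 69 elsewhere. Full-length reads gave 2 of 27 there, and the remaining NEFM full-length reads began at the usual start.

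The transcript reads of PRPH, 15, 16, 19 and 14, all belonged to 1 transcript that the authors' annotation adds. It has 10 exons and begins 1885 bases before the annotated start (chromosome 12, 49293262 against 49295147, plus strand), while the annotated transcript of 9 exons had 0 reads in every library. Only 1, 0, 1 and 2 of those reads were full-length. The gene reads of PRPH given above also include reads assigned to no transcript.

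Microtubule-associated proteins gave no call for either treatment, and 2 of the 8 tested differed between backgrounds. MAP1B, which binds microtubules of growing axons, had 573, 922, 634 and 371 reads. It rose with the knockdown alone (log2 0.54, adjusted exact p 8.51e-11) and fell with it in azacytidine (-0.74, adjusted exact p 2.35e-13), a difference of -1.29. MAP2, the dendritic microtubule protein, had 540, 761, 319 and 162 reads, with knockdown log2 ratios of 0.35 and -0.95 and a difference of -1.30 (adjusted exact p 7.66e-14). In both genes the highest library was the knockdown and the lowest the combined one.

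MAP2 was also repeated lower with azacytidine (log2 -0.43 and -1.73). That result rests in part on reads placed in the gene but in no transcript: the transcript reads of MAP2 were 215, 275, 211 and 74, and gave 0.18 and -1.43. DCX and DCLK1, doublecortin and its kinase relative, which bundle microtubules in migrating and growing neurons, rose with the knockdown alone (log2 0.41 and 0.66) and not in azacytidine (-0.01 and -0.03). MAP6, which makes microtubules resist cold, and MAPT, the gene of tau, rose with azacytidine in the knockdown pair (0.61 and 0.71) and not significantly without the knockdown (0.37 and 0.19). From transcript sums, DCX with the knockdown alone (0.37) and MAP6 and MAPT with azacytidine in the knockdown pair (0.35 and 0.50) did not pass. MAPT had 97, 87, 88 and 101 reads, and its knockdown log2 ratios of -0.30 and 0.23 did not pass. MAP1A, with 45, 57, 49 and 54 reads, and MAP4, with 210, 251, 162 and 192, passed in no pair, and MAP7, with 16, 25, 9 and 1, was not tested.

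Of 12 kinesin genes, 0 were repeated with the knockdown and 3 were repeated higher with azacytidine, KLC2, KIF1A and KIF21B. KLC2 (ENSG00000174996.12, chromosome 11, 66257294 to 66267860), a light chain that links kinesin-1 to cargo, had 32, 45, 65 and 97 reads. Both azacytidine libraries were above both others, at 132 and 200 CPM against 51.6 and 65.7. The azacytidine log2 ratios were 1.33 (0.72 to 2.01, adjusted exact p 1.03e-04) and 1.59 (1.08 to 2.15, adjusted exact p 1.86e-09). The additive edgeR model kept the call (adjusted p 0.0138) and the additive DESeq2 model did not (0.142). The sums of transcript reads were 20, 22, 32 and 39. With azacytidine they passed in the combined library against the knockdown (log2 1.26, adjusted exact p 0.00472). They did not pass in azacytidine against control (0.86, adjusted exact p 0.184).

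KIF1A, the fast carrier of synaptic vesicle precursors, had 221, 216, 258 and 267 reads and was repeated higher with azacytidine (log2 0.55 and 0.80). KIF21B, a kinesin that also limits microtubule growth, had 43, 85, 76 and 93 reads and was repeated higher as well (1.14 and 0.63). Its transcript sums gave 1.00 and 0.57, the latter with an adjusted exact p of 0.0541. The control was the lowest KIF21B library, at 69.4 CPM against 124 in the knockdown. With the knockdown, KIF21B transcript sums gave 0.94 without azacytidine (adjusted exact p 0.0331) and 0.50 with it (0.277). KIF5A, the neuronal kinesin-1 heavy chain, had 100, 147, 111 and 158 reads and rose with azacytidine only in the knockdown pair (0.60, against 0.48 with an adjusted exact p of 0.0646). No tested member kinesin was repeated lower with azacytidine. Without the knockdown 5 kinesins rose and 1 fell, and with it 4 rose and 4 fell. KIF1B and KIF21A had log2 ratios of -0.33 and -0.43, and -0.37 and -0.32, of which 1 of each passed. KIF5B fell further, from 287 CPM in the knockdown to 45.4 in the combined library. Its transcript sums gave azacytidine log2 ratios of -0.23 without the knockdown and -2.49 with it (adjusted exact p 0.584 and 9.44e-18).

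The kinesin-1 heavy chains KIF5B and KIF5C differed between backgrounds. KIF5B (ENSG00000170759.11, chromosome 10, 32009015 to 32056425), the general form, had 128, 197, 95 and 22 reads, with the combined library far below the other 3. Its knockdown log2 ratio was 0.48 without azacytidine (0.15 to 0.81) and -2.06 with it (-2.82 to -1.40, adjusted exact p 7.89e-10), a difference of -2.54 (adjusted exact p 3.35e-11). Transcript reads, 112, 165, 83 and 21, gave -2.26, and uniquely assigned reads -2.16. KIF5C, a neuronal form, had 321, 671, 337 and 279 reads and a difference of -1.16, but its transcript reads were 188, 227, 175 and 158, and gave -0.16. KIF3A, a kinesin-2 motor subunit, fell with the knockdown in azacytidine (50, 47, 45 and 20 reads, log2 -1.13). From gene reads its partners KIF3B and KIF3C passed in neither knockdown pair. Uniquely assigned reads of KIF3C were 9, 50, 14 and 8, a knockdown log2 ratio of 2.30 without azacytidine (adjusted exact p 3.26e-05). They gave a difference between backgrounds of -2.83 (adjusted exact p 0.0211), and transcript sums gave -0.43 (0.765).

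Of 7 dynein and dynactin genes, 2 rose with the knockdown without azacytidine and 0 fell. DYNC1I1 and DYNC1I2, the intermediate chains that bind dynactin, had 53, 188, 38 and 57 and 173, 427, 143 and 125 reads. Their knockdown log2 ratios were 1.67 and 1.16 without azacytidine and 0.61 and -0.17 with it, and for DYNC1I2 the difference of -1.32 passed (adjusted exact p 1.69e-07). Most of these added reads belonged to no transcript. The transcript reads of DYNC1I2 were 109, 126, 99 and 94, a share of 63.0%, 29.5%, 69.2% and 75.2% of its gene reads, and gave knockdown log2 ratios of 0.12 and 0.09. For DYNC1I1 the transcript reads were 21, 32, 29 and 28.

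DYNC1H1, the dynein heavy chain, had 203, 267, 357 and 231 reads and rose with azacytidine without the knockdown (log2 1.14, adjusted exact p 6.84e-18), against 0.29 with it. Its transcript reads, 129, 145, 153 and 130, gave 0.45 and did not pass (adjusted exact p 0.076). DCTN1, the p150 subunit of dynactin, had 177, 204, 160 and 259 reads, and was highest in the combined library. It rose with the knockdown in azacytidine (0.72) and with azacytidine in the knockdown (0.84), while its transcript sums gave 0.60 and 0.41 and passed in neither pair (adjusted exact p 0.0558 and 0.0731). The light intermediate chains DYNC1LI1 and DYNC1LI2, which tether cargo adaptors, and DCTN2, the dynamitin subunit, passed in no pair, with log2 ratios between -0.36 and 0.52.

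Of the membrane skeleton, 1 gene was called with azacytidine, SPTBN4 (ENSG00000160460.17, chromosome 19, 40466241 to 40576464), beta-IV spectrin of the axon initial segment and nodes. It had 17, 25, 58 and 49 reads. Of these, 5, 8, 22 and 20 belonged to a transcript, too few for a test of transcript sums. From gene reads, the log2 ratios were 2.06 (1.30 to 2.97, adjusted exact p 2.09e-07) and 1.45 (0.75 to 2.23, adjusted exact p 1.38e-04), or 4.18 and 2.73 times the paired library. The additive edgeR model kept the call (adjusted p 0.0177) and the additive DESeq2 model did not (0.143). With the knockdown its log2 ratios were 0.40 and -0.21, and neither passed.

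ANK2 (ENSG00000145362.21, chromosome 4, 112818032 to 113384221), ankyrin-B of the axon shaft, had 1069, 1506, 430 and 505 reads. It was repeated lower with azacytidine (log2 -0.99 and -1.08) and repeated higher with the knockdown (0.35 and 0.26). Its transcript reads were 273, 396, 235 and 199, so the share of its gene reads in a transcript rose from 25.5% and 26.3% to 54.7% and 39.4% with azacytidine. From transcript reads the azacytidine log2 ratios were -0.01 and -0.53, and the knockdown ratio with azacytidine was -0.08. By the same test of shares, 3 members were called higher with azacytidine, ANK2, KLC1 and DYNC1I1, beside 0.773% of all genes.

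The spectraplakins MACF1 and DST tie actin to microtubules. MACF1 had 325, 399, 156 and 184 reads and was repeated lower with azacytidine (log2 -0.73 and -0.62), while its uniquely assigned reads gave 0.20 and 0.16. DST had 359, 819, 252 and 176 reads, high in the knockdown and low in the combined library. Its knockdown log2 ratios were 1.04 and -0.49, a difference of -1.53 (adjusted exact p 1.88e-17), and transcript reads gave -1.25. SPTAN1 and ANK3, alpha-II spectrin and ankyrin-G, rose with the knockdown without azacytidine (0.75 and 0.61); with it their log2 ratios were 0.32 and 0.13. Transcript sums gave 0.27 and 0.49 without azacytidine, and neither passed (adjusted exact p 0.476 and 0.0527). SPTBN1, beta-II spectrin, passed in no pair (153, 200, 146 and 122 reads).

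ANK3 had 2 unannotated transcripts of 9 exons that share their last 8 exons and differ in the first. Together they held 18 of 132 transcript reads in the control (13.6%), 57 of 198 in the knockdown (28.8%), 32 of 117 in the azacytidine (27.4%) and 52 of 118 in the combined library (44.1%, 95% Wilson interval 35.4% to 53.1%). Of these, 11, 30, 17 and 27 reads were full-length. The pair was chosen after its values were seen. The first-exon group that holds nearly the same reads (17, 57, 34 and 52) passed without azacytidine for the knockdown and without the knockdown for azacytidine (adjusted Fisher's exact p 0.0133 and 0.042), did not pass in the other pairs (0.217 and 0.0713), and was not called; neither transcript was called on its own.

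In the growth cone group, GAP43 (ENSG00000172020.13, chromosome 3, 115623510 to 115721490), a membrane protein of growing axon tips, had 118, 126, 181 and 191 reads. Both azacytidine libraries were above both others, and GAP43 was repeated higher with azacytidine (log2 0.94, interval 0.60 to 1.29, and 1.10, interval 0.77 to 1.44). Uniquely assigned reads gave 1.07 and 1.37 and full-length reads 0.93 and 1.07, all with adjusted exact p-values under 0.05 (from 1.09e-06 to 0.00492). CRMP1, a tubulin-binding mediator of semaphorin signals, had 154, 226, 202 and 220 reads and was repeated higher too (0.72 and 0.46). DPYSL4 rose with azacytidine alone (0.84; transcript sums gave 0.36 and did not pass), and DPYSL2, DPYSL3 and DPYSL5 passed in no pair. With the knockdown, CRMP1 rose without azacytidine (0.41) and no other gene of the group passed. This CRMP1 rise did not pass in transcript sums, uniquely assigned or full-length reads (0.29, 0.36 and 0.60, adjusted exact p 0.516, 0.599 and 0.533).

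DPYSL3 (ENSG00000113657.13), the CRMP family member also called CRMP4, changed its start, while its gene reads, 146, 192, 148 and 144, passed in no pair. Transcripts from the upstream start (first exons within chromosome 5, 147509478 to 147510068, minus strand) took 31 of 93 control transcript reads and 44 of 121 knockdown ones, 33.3% and 36.4%. With azacytidine they took 5 of 103 and 3 of 99, 4.85% and 3.03%. The fall was 28.5 and 33.3 percentage points (adjusted Fisher's exact p 2.54e-05 and 3.77e-08), and the downstream start (147453549 to 147453959) rose by the same amounts. Uniquely assigned reads from the upstream start were 12 of 36, 12 of 33, 1 of 34 and 1 of 38, and full-length reads 11 of 34, 12 of 31, 1 of 28 and 1 of 34. The direction was the same in both kinds of read, and neither kind alone gave a call.

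**Figure D3:**
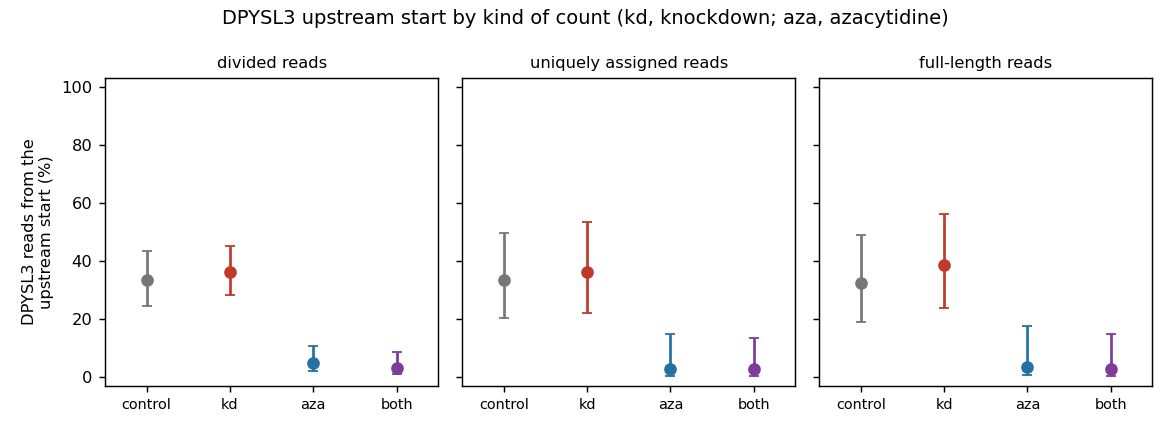
Share of DPYSL3 transcript reads that begin at the upstream start, in percent with 95% Wilson intervals, for each kind of count and library. In each panel both azacytidine libraries lie under 5% and the other libraries above 30%.

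Azacytidine acts on methylation of the CG dinucleotide, so the 250 bases before the RefSeq start of the upstream DPYSL3 transcripts (build GRCh38.p14) are shown, 5′ to 3′ on the gene's strand with every CG in capitals; CG reads the same on both strands. The window (chromosome 5, 147510069 to 147510318, minus strand) ends just before the annotated gene and holds 25 CG. The window before the downstream RefSeq start (147453693 to 147453942) holds 21. It lies inside the span of the downstream first-exon group (147453549 to 147453959), not before it. Of all 35116 RefSeq windows of this length, 21.6% hold at least 25 and 30.2% at least 21, and their median is 11. Methylation was not measured, and its part in the change of start was not tested.
DPYSL3 upstream: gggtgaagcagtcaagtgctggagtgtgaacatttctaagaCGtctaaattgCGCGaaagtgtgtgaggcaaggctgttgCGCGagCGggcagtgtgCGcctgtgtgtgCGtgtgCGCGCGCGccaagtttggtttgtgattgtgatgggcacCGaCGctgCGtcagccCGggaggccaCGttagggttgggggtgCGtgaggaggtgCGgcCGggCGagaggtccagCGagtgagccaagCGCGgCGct

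Over all genes' first-exon groups, 3 members' groups were called higher with azacytidine (0.47% of 6379) and 3 lower (0.658%); with the knockdown 0 were higher and 1 lower (0.251% of all in each direction). The others with azacytidine were in DCX, ANK2 and MACF1. In DCX the group at chromosome X, 111411970 to 111412429, rose from 42.5% and 48.8% to 63.3% and 69.4% of transcript reads, and in uniquely assigned reads it took 1 of 7, 1 of 3, 11 of 17 and 2 of 4. In ANK2 the group at chromosome 4, 113332985 to 113333208, took 48 of 273 and 100 of 396 reads in its absence, then 0 of 235 and 0 of 199 under azacytidine, with upper Wilson limits of 1.61% and 1.89%; it held 0 to 1 uniquely assigned reads in any library. In MACF1 an internal group (chromosome 1, 39331138 to 39336653), with other tested groups upstream of it, rose from 34.3% and 40.2% to 67.0% and 68.6%. A group downstream of it (39437728 to 39438008) fell from 25.7% and 14.1% to 1.94% and 0%.

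With the knockdown, the called start was in MAP2. Its group at chromosome 2, 209579315 to 209579755, held 96 of 215, 60 of 275, 99 of 211 and 14 of 74 reads (44.7%, 21.8%, 46.9% and 18.9%), a fall in both knockdown pairs (adjusted Fisher's exact p 9.78e-06 and 0.00108). Uniquely assigned reads gave 25 of 29, 13 of 25, 29 of 32 and 6 of 8. Transcripts of MAP2, ENST00000360351.8 among them, shared this fall (38.1% to 17.8% and 39.3% to 14.9%).

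At the level of transcripts, 1 member transcript was called higher with the knockdown (0.368% of 15495) and 2 lower (0.342%); with azacytidine 3 were higher (0.49%) and 5 lower (0.639%). The other knockdown calls were in DYNC1H1, where ENST00000360184.10 fell from 65.1% to 28.3% and from 72.5% to 43.8% and ENST00000680715.1 rose from 16.3% to 49.0% and from 11.8% to 26.9%. The models are 19940 and 14289 bases long, and neither held a uniquely assigned or full-length read, so their shares come from the division of partial reads. With azacytidine, ENST00000676179.1 of KIF1B rose (48.5% and 50.5% to 72.5% and 78.7%) and ENST00000377093.9, a short form of 21 exons, fell (41.9% and 45.7% to 15.0% and 19.1%). ENST00000398514.7 of DPYSL3 and ENST00000289893.8 of MACF1 rose. ENST00000343218.10 of DPYSL3, ENST00000691623.1 of MACF1, ENST00000683972.1 of ANK2 and ENST00000358161.9 of SPTAN1 fell, the last from 19 of 111 and 29 of 143 reads to 0 of 101 and 0 of 125.

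Short internal exons gave several calls with azacytidine. Microexons, here internal exons of at most 30 bases, add a few residues to a protein and are included mainly in neurons. Of 91 member exons tested, 7 were called higher with azacytidine (1.56% of 5002) and 5 lower (0.68%), and with the knockdown 0 were called (0.28% higher and 0.22% lower over all genes). Among exons of at most 30 bases, 4 of 22 in members were called higher and 0 lower, beside 7.55% of 318 over all genes; among longer ones 3 of 69 were called higher, beside 1.15% of 4684. The 22 member microexons lie in 11 genes, and exons of the same gene can come from the same transcripts, so they are not independent observations. Of the 22, 18 had a higher share in both azacytidine pairs and 3 a lower one, beside 167 and 59 of the 318 over all genes. Their median change was 7.52 and 11.6 percentage points, beside 4.31 and 5.65 over all genes. In the knockdown pairs 7 were higher in both and 6 lower, beside 84 and 89 over all genes.

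The 6 called exons of at most 42 bases are printed in capitals with 15 bases of the neighbouring exons in lower case, 5′ to 3′ on the gene's strand, from GENCODE 29 transcripts on hg38. All are coding in that annotation, and each length is divisible by 3, so the frame is kept. They lie at chromosome 1, 10273014 to 10273031 and 10279097 to 10279138 (KIF1B, plus strand), chromosome 12, 39330242 to 39330262 and 39315932 to 39315970 (KIF21A, minus strand), chromosome 1, 39465095 to 39465112 (MACF1, plus strand) and chromosome 9, 128609651 to 128609665 (SPTAN1, plus strand).
KIF1B exon of 18 bases: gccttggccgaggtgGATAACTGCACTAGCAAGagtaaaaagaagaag
KIF1B exon of 42 bases: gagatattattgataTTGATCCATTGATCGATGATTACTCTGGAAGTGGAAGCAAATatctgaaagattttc
KIF21A exon of 39 bases: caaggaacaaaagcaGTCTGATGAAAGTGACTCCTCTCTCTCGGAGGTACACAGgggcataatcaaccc
KIF21A exon of 21 bases: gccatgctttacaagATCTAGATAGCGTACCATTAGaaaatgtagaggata
MACF1 exon of 18 bases: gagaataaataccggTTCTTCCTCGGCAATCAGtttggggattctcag
SPTAN1 exon of 15 bases: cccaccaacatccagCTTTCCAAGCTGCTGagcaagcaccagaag

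KIF1B carries mitochondria and vesicle precursors. Its exon of 18 bases was in 97 of 167 informative reads in the control (58.1%), 108 of 209 in the knockdown (51.7%), 101 of 120 in the azacytidine (84.2%) and 76 of 94 in the combined library (80.9%), so the azacytidine libraries stood above the others (adjusted Fisher's exact p 1.72e-04 and 6.75e-05). Its exon of 42 bases went from 53.9% and 50.7% to 80.0% and 78.7%. The short KIF1B transcript that fell lacks both exons and the long one that rose has both, so these are not independent of the transcript calls. Uniquely assigned reads gave 15 of 20, 5 of 15, 13 of 13 and 5 of 5 for the exon of 18 bases.

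KIF21A, a kinesin that halts microtubule growth at the cortex, included its exon of 21 bases in 103 of 129, 117 of 159, 95 of 99 and 89 of 96 reads (79.8%, 73.6%, 96.0% and 92.7%). Its exon of 39 bases went from 73.6% and 69.0% to 91.9% and 88.5%. In uniquely assigned reads the exon of 21 bases was in 29 of 45, 27 of 54, 11 of 13 and 24 of 30. The order of the libraries was the same in both kinds of count, with the azacytidine libraries above.

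MACF1 included its exon of 18 bases in 65 of 155, 110 of 235, 73 of 91 and 112 of 130 reads (41.9%, 46.8%, 80.2% and 86.2%; adjusted Fisher's exact p 6.84e-07 and 1.41e-11), the largest change among the called member exons. In uniquely assigned reads the shares were 43 of 50, 81 of 111, 53 of 56 and 81 of 89, a smaller change in the same direction. This exon is part of ENST00000289893.8, the MACF1 transcript called higher with azacytidine, so the exon and transcript calls are not independent. SPTAN1 included its exon of 15 bases in 89 of 108, 97 of 140, 91 of 93 and 123 of 123 reads (82.4%, 69.3%, 97.8% and 100%), and uniquely assigned reads gave 39 of 43, 46 of 66, 39 of 40 and 64 of 64. With uniquely assigned reads, fewer exons could be tested and 0 member exons were called. A longer MACF1 exon of 327 bases (chromosome 1, 39427961 to 39428287) rose from 70.9% and 66.2% to 88.5% and 85.0%.

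**Figure D4:**
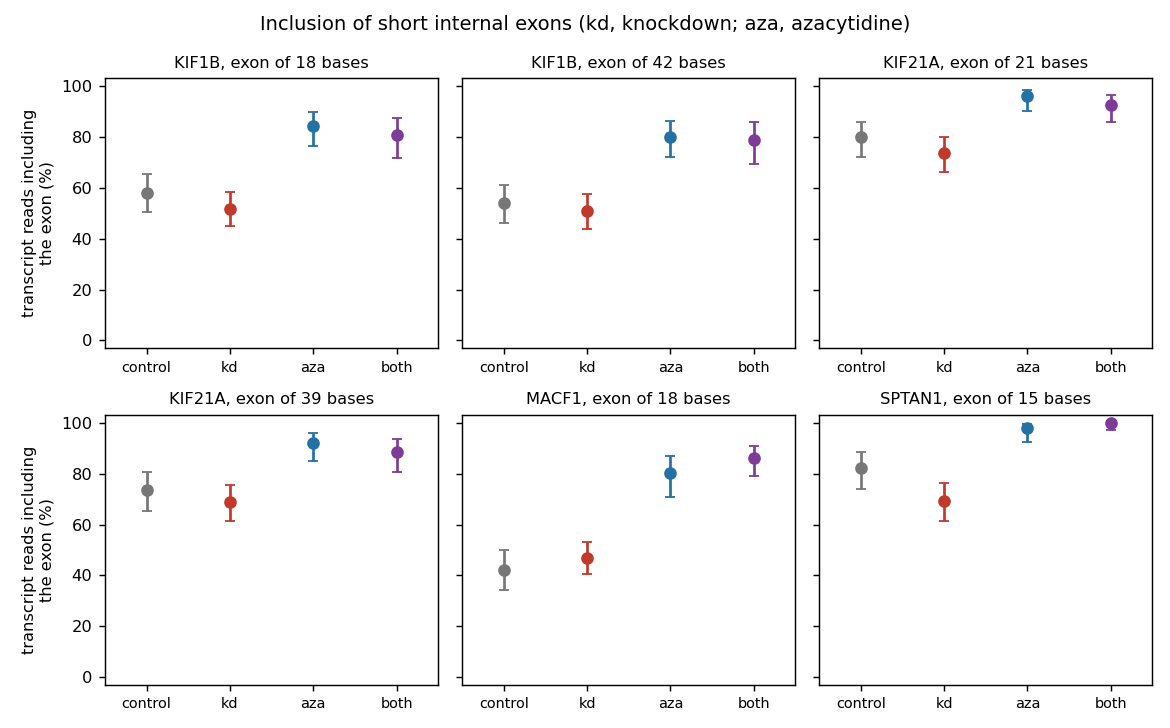
Share of informative transcript reads that include each of 6 short internal exons, in percent with 95% Wilson intervals, in the 4 libraries. In all 6 panels both azacytidine libraries lie above the control and knockdown libraries, the widest gap being in MACF1 (41.9% and 46.8% against 80.2% and 86.2%).

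The 5 exons called lower with azacytidine were neighbours in DST (chromosome 6, 56601443 to 56609344, minus strand) and came from the same transcripts, with 28 of 172, 49 of 336, 5 of 116 and 2 of 76 reads in library order. They count as 1 observation. The microexons outside the calls were in ANK2, ANK3, DCTN1, DCTN2, DST, DYNC1I2, KIF1A, KIF21A and MACF1. Named after their values were seen, the exon of 24 bases in ANK2 went from 89.2% and 93.5% to 100% and 97.7% and the exon of 27 bases in ANK3 from 65.5% and 64.4% to 77.5% and 81.2%. The exon of 18 bases in DST went the other way, at 54.4% and 44.4% without and 50.8% and 21.2% with azacytidine.

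Exons 2 and 3 of the tau gene MAPT add inserts near the amino end of the protein. The exons are at chromosome 17, plus strand, 45971859 to 45971945 and 45974385 to 45974471, both coding, and are shown in capitals with 15 bases of each neighbour because the counts below turn on them.
MAPT exon 2: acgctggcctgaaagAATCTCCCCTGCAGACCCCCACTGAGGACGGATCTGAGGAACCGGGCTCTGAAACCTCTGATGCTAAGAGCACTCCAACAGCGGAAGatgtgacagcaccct
MAPT exon 3: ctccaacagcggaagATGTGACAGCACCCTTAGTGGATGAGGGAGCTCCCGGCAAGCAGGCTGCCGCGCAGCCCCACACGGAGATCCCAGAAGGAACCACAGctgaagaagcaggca

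In the transcript counts, which split a read among all transcripts it fits, exon 2 was in 29 of 55, 44 of 64, 24 of 69 and 5 of 66 of these divided reads (52.7%, 68.8%, 34.8% and 7.58%), and in 1 of 11, 0 of 11, 1 of 14 and 3 of 12 uniquely assigned ones. Full-length reads included it in 1 of 10, 0 of 8, 1 of 9 and 1 of 6, so the level depended on the kind of count. Exon 3 was in 28 of 56, 44 of 64, 22 of 68 and 0 of 66 divided reads. In divided reads both exons passed in 1 pair of each treatment, the pairs that hold the combined library, and neither exon was called. The differences between libraries in exons 2 and 3 follow 2 transcript models, the first with both exons and the second with neither: ENST00000351559.10 held 28, 44, 22 and 0 reads and ENST00000446361.7 held 11, 0, 22 and 48, and neither had a uniquely assigned read. The MAPT transcript with uniquely assigned reads in every library was ENST00000334239.12, of 9 exons and 1107 bases, which held 15, 20, 19 and 14 reads, of which 8, 8, 8 and 5 were full-length. ENST00000535772.6 held 2, 0, 2 and 5. Nearly all MAPT transcript reads, 94.5% to 100% in a library, began at 1 start (chromosome 17, 45894527 to 45894686).

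**Figure D5:**
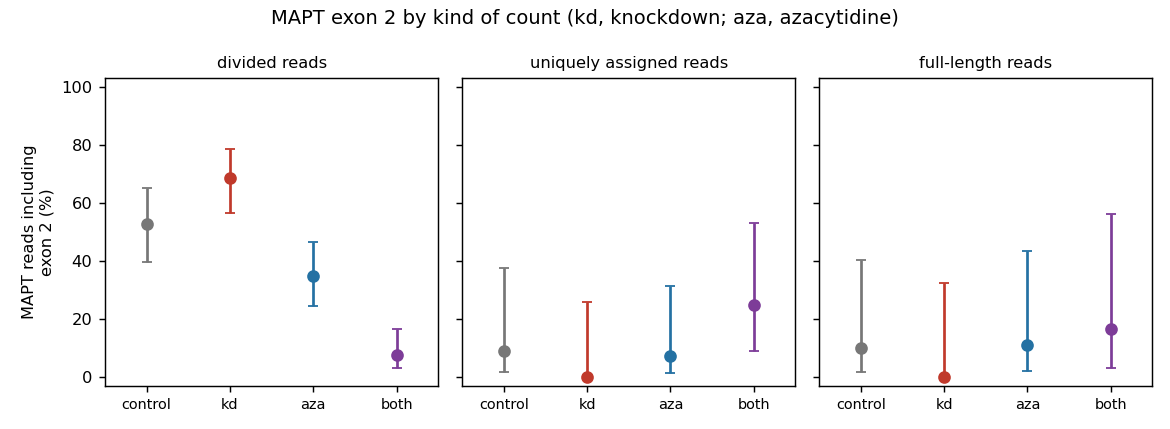
Share of MAPT reads that include exon 2, in percent with 95% Wilson intervals, by kind of count and library. The share lies between 7.58% and 68.8% in divided reads and at 25% or less in uniquely assigned and full-length reads.

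The lists of other genes of the pathway gave few calls apart from mitotic motors. Of 11 tested mitotic kinesins, 10 were called lower with azacytidine, and their 14 genes summed to 1150 and 1372 CPM without it and 186 and 213 with it. KIFC1 went from 56 and 45 reads to 2 and 2, KIF23 from 60 and 78 to 2 and 1, and KIF11, the spindle motor, from 76 and 112 to 3 and 4. Proliferation markers moved with them in the libraries, as given above. Of 9 tested transport kinesins outside the members, 1 was called lower, KIF13A (60, 94, 18 and 11 reads).

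Among 19 tested motor adaptors and regulators, 2 were called lower with azacytidine, NDE1, a dynein regulator that also acts in mitosis (70, 33, 4 and 2 reads), and GRIP1, which links glutamate receptors to kinesin (150, 251, 52 and 69 reads). Of 16 tested tubulin-modifying enzymes and chaperones, 1 was called higher, SIRT2, a tubulin deacetylase (12, 20, 41 and 53 reads). No gene was called in the lists of dynein and dynactin subunits (11 tested), microtubule tip and severing factors (23 tested) and other spectrins and ankyrins (14 tested), and no gene of any of these pathway lists was called with the knockdown.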

How the data were processed

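The authors deposited gene and transcript tables of estimated counts, in which a read fitting several transcripts is divided, a full-length version of these estimates, and counts of uniquely assigned reads. The aligner was minimap2 and the build hg38, per the file headers, and Bambu wrote the extended annotation; versions and settings are not given in the sources used here. Every deposited gene count and unique count was even (gene counts to within rounding), so all counts were halved and rounded to whole reads. The transcript estimates held 16489 to 19754 odd values per library and the full-length estimates 1779 to 1997, and these were halved too. Why the gene and unique counts are even is not given in the sources used here.

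Library sizes were scaled by TMM (edgeR 4.0.16). The 8145 genes averaging 20 reads or more were compared between 2 libraries by two-sided exact binomial tests (scipy 1.17.1), adjusted by Benjamini-Hochberg over all of them, with a pseudocount of 0.5 for log2 ratios. Differences between backgrounds were tested by an exact conditional test of the 2 by 2 counts. Transcripts, first-exon groups and internal exons were compared by Fisher's exact test for features with at least 10 reads in genes averaging 20 transcript reads or more; calls needed 10 percentage points. Intervals are 95% Clopper-Pearson for ratios, Wilson for shares and Poisson for levels, and cover counting error only, since reads of amplified cDNA need not be independent molecules. The tests were run on simulated data first. DESeq2 (1.42.0) served for alternatives.

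Members and lists were chosen with earlier results of these data known. Named by rule were the filament genes, MAPT, every member called, repeated or different between backgrounds, the called features, MAPT exons 2 and 3 (1 further result named by the rule is not reported here), transcripts of MAPT, NEFL, NEFM and NEFH with at least 5% of reads, TARDBP, and at most 3 called genes of each other list; further members and features were named after their values were seen. Promoters are from RefSeq.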

Additional observations from a re-analysis of the deposited data

Results flagged for a closer look

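The knockdown ratio differed between neurons without and with azacytidine in 8 members, by a test of the difference itself (exact conditional test of the 4 read counts, adjusted over all genes). The differences in log2 ratio, with minus without azacytidine, were -2.54 for KIF5B, -1.99 for TUBB2A, -1.53 for DST, -1.32 for DYNC1I2, -1.30 for MAP2, -1.29 for MAP1B, -1.16 for KIF5C and -1.03 for NEFL. Each compares 1 library per group, so the spread between cultures is not in the test. From sums of transcript reads the difference was -0.03 for DYNC1I2 and -0.16 for KIF5C, and stayed past the threshold for KIF5B, DST, MAP2, MAP1B and NEFL; TUBB2A fell below the read minimum. From uniquely assigned reads it stayed past the threshold for KIF5B (-2.16) and MAP1B (-1.44), and not for DST (-0.82), MAP2 (-1.38) or NEFL (-0.92). KIF3C, not among the 8, also passed in uniquely assigned reads (-2.83, adjusted exact p 0.0211).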

How the results depend on the processing

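No paired analysis was possible because every label gives the same replicate number and each group has 1 library. Of the summary results under all alternatives, 84 kept their direction and size class, 46 moved and 6 reversed. Of single-gene ratios and share changes of single features, 502 kept their direction and their side of the adjusted p threshold. Another 121 lost that threshold and 6 reversed. The minimum fold or change in percentage points was not part of this comparison, so a kept result need not have kept its call. The cause was not tested, except that unique, full-length and transcript sums test fewer genes.

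Scaling by total reads gave 14 members repeated with azacytidine and a median of -0.0898 for the knockdown without azacytidine; among all genes called with the knockdown it moved the share lower from 35.4% to 67.1%. A mean of at least 1 read gave 2 repeated with the knockdown. Counts without halving gave 11 repeated with the knockdown, 19 with azacytidine, 6 transcripts, 6 first-exon groups and 2 internal exons called with the knockdown and 21 internal exons with azacytidine. Uniquely assigned sums gave 1 called and 2 repeated with the knockdown, 1 called and 1 repeated with azacytidine, 3 differing between backgrounds, a median of 0.0932 for the knockdown with azacytidine, and azacytidine ratios of 0.20 and 0.16 for MACF1 and 0.20 for MAP2 without the knockdown. Full-length sums gave 1 called and 1 repeated with the knockdown, 0 called and 1 repeated with azacytidine, 1 differing and a median of -0.0645. Removing a trend with length gave 4 called and 14 repeated with azacytidine, 4 differing, a median of -0.105 and -0.0509 for ANK2 with the knockdown alone. Transcript sums, added after seeing the data, gave 0 called and 2 repeated with the knockdown, 0 called and 3 repeated with azacytidine, 5 differing, -0.077 for ANK2 with the knockdown in azacytidine and 0.18 for MAP2. The additive edgeR model gave 0 called and 0 repeated with the knockdown, a median of 0.0196 and 4 called and 4 repeated with azacytidine; DESeq2 gave 0 and 0, a median of -0.0228, and 1 and 1. For isoforms, uniquely assigned and full-length reads gave 0 calls of transcripts and first-exon groups with either treatment and 0 internal exons with azacytidine. A change of 20 points left 5 transcripts and 3 internal exons with azacytidine.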
